A study of Mus musculus with 8 samples.

Results

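The 79 genes described here are the splicing factor genes of the deposited table, chosen by name: the serine and arginine rich (SR) proteins (Srsf, 12 genes), the heterogeneous nuclear ribonucleoproteins (Hnrnp, 19), the SF3A and SF3B subunits (Sf3, 9), the small nuclear ribonucleoprotein proteins (Snrp, 13), the Sm-like proteins (Lsm, 13) and the pre-mRNA processing factors (Prpf, 13). The table holds 26873 features, and no name of this group occurred more than 1 time in it. Of the 79 genes, 78 had enough counts to be tested. Srsf8 was listed at 0 in all 8 libraries, where 3 counts would correspond to 0.0718 to 0.091 CPM (counts scaled to a common library total).

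The libraries come from wild-type cells labelled as a bone marrow mesenchymal stem cell (BMSC) line in osteogenic differentiation, cultured with extracts of polycaprolactone (PCL) scaffolds and taken on day 3 or day 7. The labels distinguish 4 scaffold arms (PCL-O, PCL-E, PCL-S, PCL-SE). The series lists blank, S7, E7 and S7+E7 as its groups. They were read here as the blank (PCL-O, by elimination), the E7 peptide (PCL-E), the S7 peptide (PCL-S) and both peptides (PCL-SE), on either day. The labels give neither the peptides' sequences nor their doses, and they do not say how many cultures stand behind a library. Each arm and day has 1 library, of 32950326 to 41754124 counts. Below, "with S7" means PCL-S together with PCL-SE, and "without S7" means PCL-O together with PCL-E. A tested group on a day thus holds 2 libraries that differ in E7 and no repeat of an arm. The fit held 1 E7 effect in common for both days and for arms with and without S7. The p-values rest on departures of the libraries from that common effect and not on variation between repeat cultures. The table's gene identifiers are those of rat, whereas the labels give mouse, and the species cannot be settled here.

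Splicing removes introns from pre-mRNA in the spliceosome, which is built from small nuclear ribonucleoproteins (snRNPs). The U1 snRNP recognises the start of the intron, the U2 snRNP with SF3A and SF3B recognises the branch point, and the tri-snRNP of U4, U6 and U5 then joins to form the machine that is activated for catalysis. Most snRNPs share a ring of Sm proteins, and U6 carries a related ring of Lsm proteins. SR proteins mostly promote and many hnRNPs mostly repress the use of nearby splice sites, and both kinds shape alternative splicing, including that of genes for the matrix and cytoskeleton of mesenchymal cells.

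The splicing factor genes were expressed across a broad range in these cells. Per length, Hnrnpk, which binds C-rich RNA, had the highest mean over the 8 libraries at 240.4 FPKM (fragments scaled to gene length and library total, as deposited). Snrpd2l had the lowest mean of those with counts at 0.836 FPKM, and Srsf12 had 1.09 FPKM. The median of the gene means was 66.1 FPKM for the Hnrnp genes, 38.2 for Srsf, 30.5 for Sf3, 22.7 for Snrp, 17.9 for Lsm and 15.7 for Prpf. The summed share of counts taken by the group lay between 0.662% in PCL-O on day 3 and 0.826% in PCL-SE on day 7.

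Summed by family, the arms lay closer together on day 3 than on day 7 in all 6 families, with the highest arm at 1.01 (Prpf) to 1.14 (Srsf) times the lowest on day 3 and at 1.14 (Prpf) to 1.93 (Snrp) times on day 7. Values in this report are given in the order PCL-O, PCL-E, PCL-S and PCL-SE where no arm is named. The Srsf genes summed to 967.3, 1004, 1053 and 1101 CPM on day 3 and to 998.7, 1130, 859 and 852 CPM on day 7. The Snrp genes summed to 310.1, 315, 302 and 311 CPM on day 3 and to 288, 357, 554 and 521 CPM on day 7. On day 7 the arms with S7 were thus the lowest for the Srsf sum and the highest for the Snrp sum, without overlap of the groups. The Sf3 sum on day 7 was 882, 965, 1174 and 1219 CPM, and the Lsm sum was 303, 342, 454 and 468 CPM. Both were highest in the arms with S7. The Hnrnp sum on day 7 was 3420, 3836, 3751 and 4020 CPM, and the Prpf sum was 1037, 1059, 1115 and 1180 CPM. The Hnrnp sums of the groups overlapped, and the Prpf sums did not. This statement on the Hnrnp and Prpf sums holds for scaling to library totals only. The fold changes below use TMM scaling, whose factors on day 7 were 0.955, 1.02, 1.15 and 1.16, and a larger factor lowers the scaled CPM. Under TMM the median log2 fold change with S7 on day 7 was -0.15 for the Hnrnp genes and -0.22 for the Prpf genes.

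**Figure D1:**
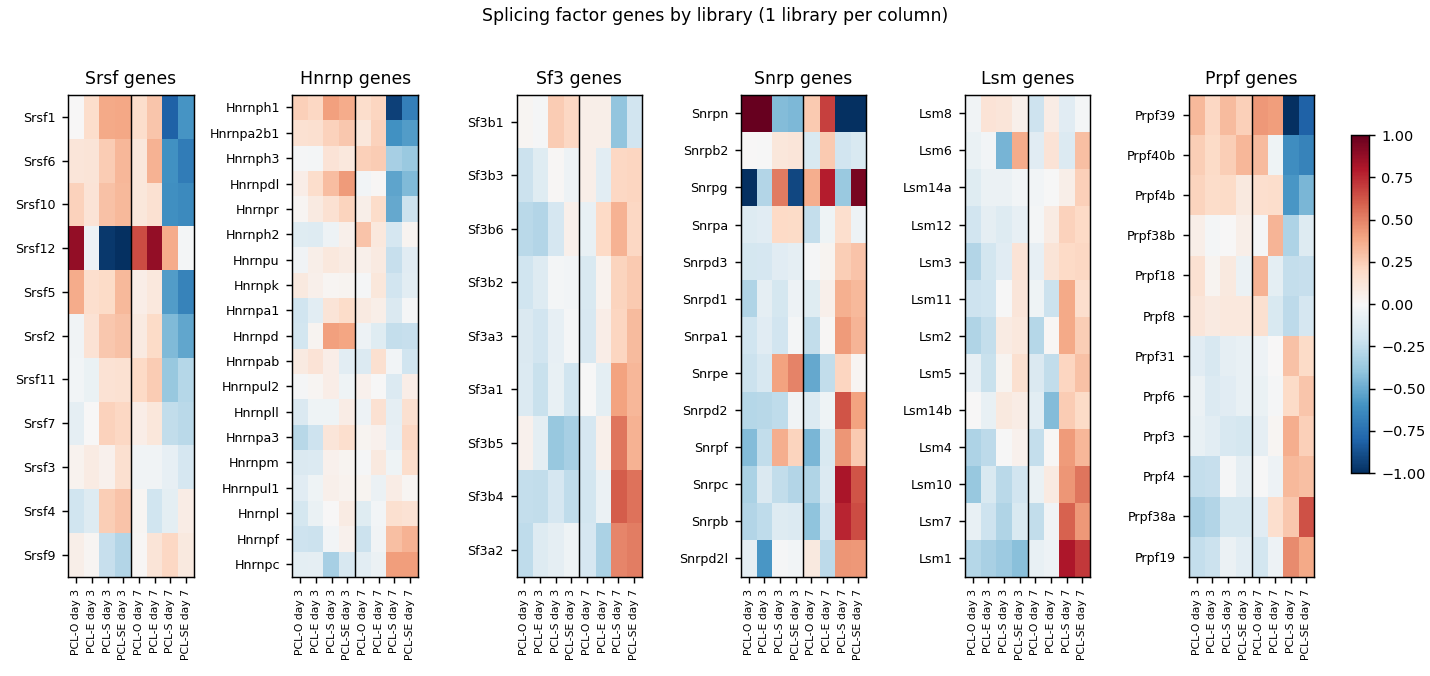
Each row is a tested gene (1 is not shown) and each column a library, with colour for log2 of TMM-normalised CPM plus 0.5 minus the gene's mean over the 8 libraries, cut at -1 and 1. Genes are ordered within a family by the S7 fold change on day 7; most Srsf rows turn blue and most Snrp, Sf3 and Lsm rows turn red in the PCL-S and PCL-SE columns of day 7.

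The arms with S7 were compared with the arms without it on day 7. In this comparison 30 of the 78 tested splicing factor genes were higher and 21 were lower, beside 24.9% higher and 26.2% lower among all 15942 tested features. Genes were called at a Benjamini-Hochberg adjusted p under 0.05 in edgeR's quasi-likelihood test over all tested features, with counts scaled by TMM, which assumes that most genes keep their share. The median log2 fold change of the 78 genes was 0.09, and that of all tested features was -0.03. By family, 0 Srsf genes were higher and 7 of 11 lower, 3 Hnrnp genes were higher and 6 of 19 lower, and 6 Sf3 genes were higher and 1 of 9 lower. Among the Snrp genes 8 of 13 were higher and 1 lower, among the Lsm genes 7 of 13 were higher and 0 lower, and among the Prpf genes 6 of 13 were higher and 6 lower. In both day 7 libraries with S7 the 100 most abundant features took 22.2% (PCL-S) and 21.7% (PCL-SE) of the counts, against 29.7% to 33.8% in the other 6 libraries. Their TMM factors were 1.15 and 1.16, against 0.928 to 1.02. With scaling to the library total in place of TMM, the median of all tested features moved from -0.03 to 0.19. Under that scaling 39 splicing factor genes were higher and 15 lower, beside 5642 and 3010 of all 15942 tested features. In bulk RNA, fewer cells of a type and less RNA per cell cannot be told apart. Without PCL-S on day 7 the number of higher genes fell to 12, and without PCL-SE on day 7 to 18; the number of lower genes was then 16 and 18.

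**Figure D2:**
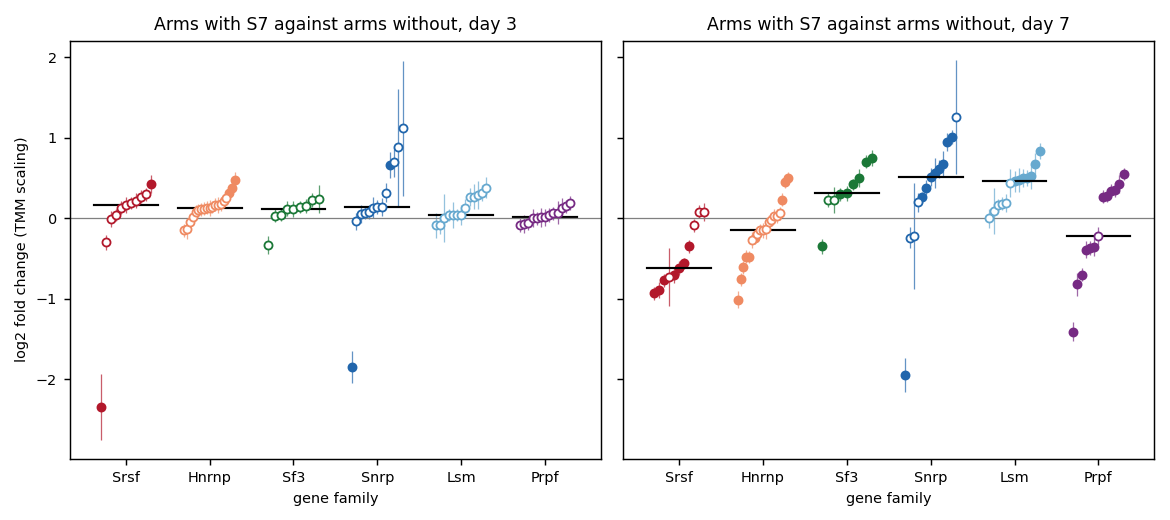
Points are tested genes, sorted within a family, with log2 fold change under TMM scaling on the vertical axis, bars of 1 standard error, filled points for called genes and a black line at the family median. On day 3 the family medians lie between 0.01 and 0.17; on day 7 they run from -0.62 (Srsf) to 0.51 (Snrp).

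SR protein genes were lower in the arms with S7 on day 7, with a family median of -0.62 under TMM and -0.39 under total-count scaling. Srsf1, the founding SR protein, which activates exons through purine-rich enhancers, stood on day 7 at 167 CPM with PCL-O, 192 with PCL-E, 102 with PCL-S and 119 with PCL-SE, and on day 3 at 145, 166, 187 and 190.2 CPM. The arms with S7 lay below those without it on day 7 and above them on day 3. With S7 on day 7 it changed by -0.93 ± 0.08 on the log2 scale (SE; adjusted p = 0.000337, edgeR). Srsf6, another exon-activating SR protein, stood at 145 CPM with PCL-O, 182 with PCL-E, 106 with PCL-S and 99.3 with PCL-SE on day 7 and at 143, 146, 155 and 165 CPM on day 3, and its log2 fold change on day 7 was -0.89 ± 0.10 (adjusted p = 0.000661, edgeR). The groups did not overlap on day 7. Srsf10, whose activity depends on its phosphorylation, stood at 35.7, 39, 25.7 and 25.4 CPM on day 7 after 38, 36, 39.3 and 40.5 CPM on day 3, and changed by -0.77 ± 0.08 on the log2 scale on day 7. Srsf2, Srsf5, Srsf7 and Srsf11 were also called lower, with log2 fold changes from -0.70 (Srsf5) to -0.35 (Srsf7). Srsf7 was not called under total-count scaling, where its log2 fold change was -0.13 (adjusted p = 0.241, edgeR), and the other 6 remained called.

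Not every SR protein gene was lower. Srsf3, the SR protein gene with the highest mean CPM, stood on day 7 at 153 CPM with PCL-O, 163 with PCL-E, 178 with PCL-S and 169 with PCL-SE and on day 3 at 157, 165, 157 and 172 CPM. Its log2 fold change on day 7 was -0.09 ± 0.08 under TMM (adjusted p = 0.41, edgeR) and 0.14 under total-count scaling. Srsf4 and Srsf9 each changed by 0.08 (log2) on day 7 under TMM and by 0.30 under total-count scaling, where both were called higher. Srsf12 stood at 0.382 to 5.2 CPM over the 8 libraries and was not called on day 7.

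Among the Hnrnp genes, those called lower on day 7 were Hnrnph1, Hnrnpa2b1, Hnrnph3, Hnrnpdl, Hnrnpr and Hnrnpu, and those called higher were Hnrnpc, Hnrnpf and Hnrnpl. The family median was -0.15 under TMM and turned to 0.08 under total-count scaling. Hnrnph1, which binds runs of G, stood on day 7 at 199 CPM with PCL-O, 218 with PCL-E, 110.4 with PCL-S and 132 with PCL-SE, against 203, 202, 227 and 224 CPM on day 3, and its log2 fold change on day 7 was -1.01 ± 0.10 (adjusted p = 0.000431, edgeR). Both day 7 libraries with S7 were the lowest of the 8. Hnrnpf, a close relative that also binds runs of G, stood on day 7 at 257, 312, 444 and 459 CPM, so that these relatives moved in opposite directions. The S7 difference was 0.45 ± 0.08 on the log2 scale (adjusted p = 0.00465, edgeR). Hnrnpk, the most abundant of the family, stood at 607, 597, 569 and 578 CPM on day 3 and at 574, 668, 609 and 650.5 CPM on day 7, and it was not called on either day. Hnrnpu, a chromatin-associated hnRNP, was called at -0.24 ± 0.08 under TMM. Its CPM, scaled to library totals, overlapped between the groups on day 7, at 431, 473, 427 and 467 CPM. Under TMM its log2 ratios to PCL-O were 0.04 (PCL-E), -0.28 (PCL-S) and -0.16 (PCL-SE), without overlap. It was not called under total-count scaling (-0.02, adjusted p = 0.888, edgeR) or after removal of a gene length trend (-0.11, adjusted p = 0.218, edgeR).

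Features that carry the name of a splicing factor gene only as a second symbol can share its reads, and 7 of the 79 genes have such a copy with counts. For Hnrnpab, Hnrnpc and Lsm6 the copy held 164%, 129% and 356% of the gene's own counts, and the values of these genes are therefore uncertain. With the copy summed in, the log2 fold change of Hnrnpc on day 7 went from 0.50 to 0.28 (adjusted p = 0.0456, edgeR). For the other 4 genes, among them Hnrnpk and Srsf3, the copy held 0.372% to 5.19%.

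Sm proteins form the ring at the heart of U1, U2, U4 and U5, and 6 of the 7 ring genes were higher with S7 on day 7 while 0 were lower (median log2 fold change 0.56), where 24.9% of all tested features were higher. All but Snrpb of these 7 genes are under 1000 bases long, a length class in which 31.9% of all features were higher. After removal of a smooth trend of fold change over length, 3 were called higher (Snrpb, Snrpd2 and Snrpf), beside 4310 of all 15942 tested features. The median of the ring was then 0.28. Without PCL-S of day 7, 2 were called. Snrpb, which encodes the Sm proteins B and B′, stood on day 7 at 68.2 CPM with PCL-O, 84.5 with PCL-E, 185 with PCL-S and 173 with PCL-SE, and on day 3 at 72.4, 75.4, 80.2 and 80.7 CPM. The arms with S7 on day 7 were the highest of the 8 libraries, and the other 6 lay between 68.2 and 84.5 CPM. The log2 fold change on day 7 was 1.01 ± 0.09 (adjusted p = 0.000386, edgeR). Snrpf, another subunit of the ring, stood at 9.33, 10.9, 16.5 and 15 CPM on day 3 and at 9.38, 12.5, 21.6 and 19 CPM on day 7, higher with S7 on both days without overlap. Its log2 fold change was 0.66 ± 0.16 on day 3 (adjusted p = 0.0385, edgeR) and 0.67 ± 0.16 on day 7 (adjusted p = 0.0116, edgeR). The ring gene not called, Snrpg, ranged from 0.927 to 6.24 CPM with no order by arm.

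The proteins specific to U1 and U2 differed among themselves. Snrpc, the U1-C protein that stabilises the pairing of U1 with the intron's start, stood on day 7 at 26.9 CPM with PCL-O, 32.3 with PCL-E, 70.9 with PCL-S and 62.4 with PCL-SE, and on day 3 at 26, 29.9, 27.2 and 26.5 CPM. The log2 fold change on day 7 was 0.95 ± 0.11 (adjusted p = 0.000838, edgeR), and the groups lay well apart. Snrpa, the U1-A protein, changed by 0.20 ± 0.12 (adjusted p = 0.196, edgeR) and was not called. Of the U2 proteins, Snrpa1 was called higher at 0.51 ± 0.11, while Snrpb2 changed by -0.24 ± 0.13 and was not called.

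Snrpn, a tissue-restricted relative of Snrpb from an imprinted locus, was lower with S7 on both days. It stood on day 3 at 51.1 CPM with PCL-O, 38.2 with PCL-E, 12.2 with PCL-S and 12.2 with PCL-SE, and on day 7 at 20.7, 29.9, 7.07 and 8.11 CPM. Its log2 fold change with S7 was -1.85 ± 0.20 on day 3 (adjusted p = 0.00274, edgeR) and -1.95 ± 0.21 on day 7 (adjusted p = 0.00056, edgeR). All 4 libraries with S7 lay below all 4 libraries without it. Snrpn was the only splicing factor gene called on day 3 in each of the 16 alternative analyses of that comparison.

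**Figure D3:**
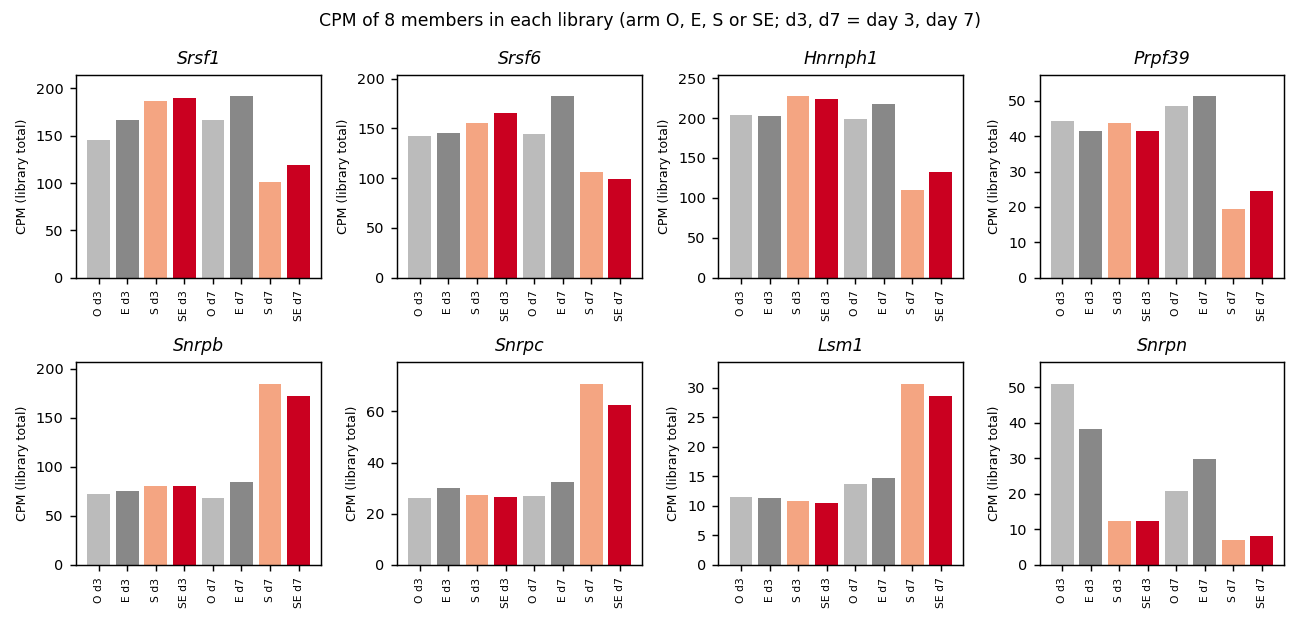
Bars give CPM scaled to the library total for 8 genes named by the rule, with 1 library per bar and no error bar; grey bars are arms without S7 and coloured bars arms with S7. On day 7 Srsf1, Srsf6, Hnrnph1 and Prpf39 are lower and Snrpb, Snrpc and Lsm1 higher in both arms with S7, and Snrpn is lower with S7 on both days.

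The SF3A and SF3B complexes sit in the U2 snRNP and hold the branch point. All 3 SF3A genes were higher with S7 on day 7, and of the 6 SF3B genes 3 were higher and 1 was lower. Of all tested features 24.9% were higher and 26.2% lower. Without PCL-S of day 7, 1 SF3B gene was higher and 0 were lower. Sf3a2 stood at 22.4 CPM with PCL-O, 21.5 with PCL-E, 42.8 with PCL-S and 43.8 with PCL-SE on day 7 and at 20.6, 22.9, 22.9 and 24 CPM on day 3, with a log2 fold change of 0.75 ± 0.10 on day 7 (adjusted p = 0.00108, edgeR). Sf3b4, which contacts pre-mRNA near the branch point, stood at 61.8, 72, 129 and 124 CPM on day 7 and at 58, 58.8, 60.7 and 57.5 CPM on day 3, and its log2 fold change was 0.70 ± 0.08 (adjusted p = 0.000834, edgeR). Neither gene's groups overlapped on day 7. Sf3b1, the large scaffold subunit and the most abundant Sf3 gene by CPM, stood at 326, 324, 381 and 373 CPM on day 3 and at 342, 365, 300.3 and 349 CPM on day 7. It was called lower on day 7 under TMM (-0.35 ± 0.09, adjusted p = 0.0189, edgeR). Its CPM, scaled to library totals, overlapped between the groups. Under TMM its log2 ratios to PCL-O were 0.0 (PCL-E), -0.45 (PCL-S) and -0.24 (PCL-SE), without overlap. It was not called under total-count scaling, where its log2 fold change was -0.12, nor after removal of a gene length trend, where it was -0.05.

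Of the Lsm2 to Lsm8 genes, whose products ring the end of U6, 4 of 7 were higher with S7 on day 7 and 0 were lower (median log2 fold change 0.46), again beside 24.9% of all tested features and 31.9% of those under 1000 bases, as all 7 are. The 4 were Lsm2, Lsm4, Lsm5 and Lsm7, of which Lsm7 changed most at 0.67 ± 0.14. After removal of the length trend Lsm4 and Lsm7 were called higher, beside 4310 of all 15942 tested features. The median of the ring was then 0.21. Higher calls in this ring numbered 0 without PCL-S of day 7 and 2 without PCL-O of day 7 or without PCL-S or PCL-SE of day 3, and Lsm5 was called in 5 of 16 alternative analyses. The largest rise among the Lsm genes was outside that ring. Lsm1 replaces Lsm8 in a cytoplasmic ring that promotes mRNA decapping, and it stood on day 7 at 13.6 CPM with PCL-O, 14.8 with PCL-E, 30.7 with PCL-S and 28.7 with PCL-SE, and on day 3 at 11.4, 11.3, 10.8 and 10.4 CPM. On the log2 scale it changed by 0.84 ± 0.10 (adjusted p = 0.000851, edgeR), and the arms with S7 were the highest of the 8 libraries. Lsm8 itself changed by 0.00 ± 0.12 and was not called. Lsm10 and Lsm14b were also called higher. Lsm10 belongs to the U7 snRNP of histone pre-mRNA processing and Lsm14b to proteins of translational control. The Lsm10 call was lost with DESeq2, after removal of the length trend and with E7 by day added, and the Lsm14b call was kept in these. Lsm14a, the most abundant Lsm gene by CPM, stood at 119, 126, 123 and 127 CPM on day 3 and at 129.7, 141, 165 and 189 CPM on day 7, and its log2 fold change on day 7 was 0.16 ± 0.08 under TMM (adjusted p = 0.13, edgeR) and 0.39 under total-count scaling, where it was called.

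The Prpf genes share a name from yeast genetics and not a single function. With S7 on day 7, 6 of 13 were higher and 6 lower, beside 24.9% and 26.2% of all tested features. Of the 5 genes for tri-snRNP proteins, Prpf3, Prpf4, Prpf6 and Prpf31 were higher with S7 on day 7, with log2 fold changes from 0.27 (Prpf31) to 0.35 (Prpf4), and Prpf8 was not called. Higher calls among the 5 numbered 0 without PCL-S of day 7, 1 without PCL-SE of day 7 and 2 without PCL-O of day 7 or without PCL-S or PCL-SE of day 3. Prpf19, the ubiquitin ligase at the centre of the complex that activates the spliceosome, was higher at 0.55 ± 0.08 (adjusted p = 0.00221, edgeR) and stood on day 7 at 108, 126, 205 and 194 CPM. Prpf38a was also higher. Prpf39, whose product joins the U1 snRNP, stood on day 7 at 48.6 CPM with PCL-O, 51.3 with PCL-E, 19.5 with PCL-S and 24.6 with PCL-SE, and on day 3 at 44.3, 41.4, 43.7 and 41.5 CPM. The fall on day 7 was -1.41 ± 0.12 on the log2 scale (adjusted p = 0.000297, edgeR). Prpf40b, related to another U1-associated protein of yeast, stood at 15.4, 15.1, 15.2 and 16.4 CPM on day 3 and at 16.5, 13.7, 10.1 and 9.81 CPM on day 7, with a log2 fold change of -0.82 ± 0.14 on day 7 (adjusted p = 0.00315, edgeR). For both genes the arms with S7 on day 7 were the lowest of the 8 libraries. The kinase gene Prpf4b was lower at -0.70 ± 0.08. Prpf18 and Prpf38b were called lower at -0.36 and -0.39, with CPM scaled to library totals that overlapped between the groups. Under TMM the log2 ratios to PCL-O for PCL-E, PCL-S and PCL-SE did not overlap. They were -0.43, -0.57 and -0.56 for Prpf18 and 0.34, -0.29 and -0.12 for Prpf38b. Neither Prpf18 nor Prpf38b was called under total-count scaling.

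Prpf8, the large protein at the catalytic centre and the most abundant Prpf gene by CPM, showed how far scaling and length reach. It stood at 363, 361, 358 and 359.6 CPM on day 3 and at 382, 328, 342 and 368 CPM on day 7, with no order by arm. Its log2 fold change with S7 on day 7 was -0.22 ± 0.11 under TMM (adjusted p = 0.135, edgeR), 0.00 under total-count scaling and 0.23 after removal of a length trend (adjusted p = 0.022, edgeR).

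Fold changes in this comparison followed gene length across the whole table. Lengths were derived from the deposited counts and FPKM, and 78 of the 79 genes had one. Of all tested features under 1000 bases, 31.9% were higher and 9.98% lower with S7 on day 7, while of those over 4000 bases 12.7% were higher and 43.2% lower. The splicing factor genes under 1000 bases, most of them Lsm and Snrp genes, were higher in 11 of 17 cases and lower in 0. Those of 1000 to 2000 bases were higher in 10 and lower in 7 of 27, those of 2000 to 4000 bases higher in 8 and lower in 10 of 27, and those over 4000 bases higher in 1 and lower in 4 of 7. Beside them, 30.0% and 19.3% of all features of 1000 to 2000 bases, and 24.7% and 28.3% of those of 2000 to 4000 bases, were higher and lower. After a smooth trend over length was removed, 28 splicing factor genes were higher and 19 lower, beside 4310 and 3819 of all 15942 tested features. Of these genes, 24 and 16 were in common with the main calls. The family median stayed at -0.62 for Srsf, rose from 0.31 to 0.43 for Sf3, fell to 0.28 for Snrp and to 0.25 for Lsm, and turned from -0.22 to 0.23 for Prpf. The part of length in these differences was not tested further.

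**Figure D4:**
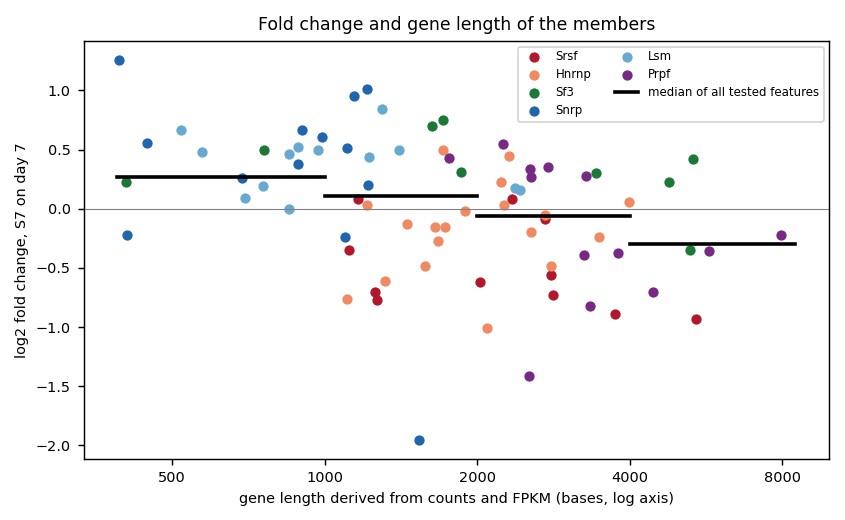
Points are the 78 genes with a length, coloured by family, with derived gene length in bases on a log axis and the log2 fold change with S7 on day 7 under TMM on the vertical axis; black bars are medians of all tested features in 4 length classes. These medians fall from 0.27 under 1000 bases to -0.30 over 4000 bases, and Srsf points lie below 0 in each length class that holds them apart from 2 just above it.

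Across all 16 alternative analyses of S7 on day 7, which change the tool, scaling, filter, terms, length trend or copies or leave out a library, 10 of the 30 higher and 15 of the 21 lower genes were called each time. The 10 were Snrpb, Snrpc, Snrpd2, Sf3a1, Sf3a2, Sf3b4, Prpf19, Lsm1, Hnrnpf and Hnrnpc, of which Hnrnpc is uncertain for its copy. The 15 were Srsf1, Srsf2, Srsf5, Srsf6, Srsf10 and Srsf11, Hnrnph1, Hnrnpa2b1, Hnrnph3, Hnrnpdl and Hnrnpr, Prpf39, Prpf4b and Prpf40b, and Snrpn. Of these, Hnrnpr had CPM, scaled to library totals, that overlapped between the groups on day 7, at 77.35, 90.27, 62.85 and 77.46 CPM. Under TMM its log2 ratios to PCL-O were 0.12 (PCL-E), -0.55 (PCL-S) and -0.27 (PCL-SE), without overlap. The share of all called features that stayed called in each alternative was not computed. Whether these genes kept their calls more often than other features is therefore not known.

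Other genes of the splicing machinery, taken from 7 lists of 165 genes outside the name rule, were set beside these on day 7. Of 154 tested, 66 were higher with S7 and 34 were lower, with a median log2 fold change of 0.15. Among all tested features 24.9% were higher and 26.2% lower. Spliceosome activation and catalysis had 20 higher and 0 lower of 28 tested, and snRNP assembly by the SMN and PRMT5 complexes had 9 higher and 0 lower of 16. Among the former, Rbm22, which contacts the catalytic RNA core, stood on day 7 at 30.8 CPM with PCL-O, 31.3 with PCL-E, 64.5 with PCL-S and 65.6 with PCL-SE, a log2 fold change of 0.84 ± 0.09 (adjusted p = 0.00065, edgeR). The cyclophilin gene Cwc27 and the Prpf19 partner Plrg1 rose by 0.83 and 0.82 on the log2 scale. Among the assembly genes, Prmt5, which methylates Sm proteins before the ring forms, stood on day 7 at 51, 61.8, 115 and 109 CPM, with the arms with S7 apart from those without it (0.77 ± 0.09, adjusted p = 0.000755, edgeR). Coil, the scaffold of Cajal bodies where snRNPs mature, rose by 0.80 ± 0.15, and Gemin6, a subunit of the SMN complex, by 0.66 ± 0.20.

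The remaining lists were mixed, where 24.9% of all tested features were higher and 26.2% lower. U1 and tri-snRNP proteins outside the name rule had 9 higher and 4 lower of 19. There Usp39 was higher at 0.75 ± 0.10, and the lower genes included the U1 core gene Snrnp70 at -0.76 ± 0.09 and the U1-associated Luc7l3 at -1.08 ± 0.09. The U2AF and branch site list had 9 higher and 4 lower of 18, led by the SF3B subunit Phf5a at 0.70 ± 0.09, the U2AF-like Puf60 at 0.64 ± 0.07 and U2af2, the U2AF subunit that binds the polypyrimidine tract, at 0.62 ± 0.08. The exon junction complex had 5 higher and 2 lower of 8, with the core genes Casc3 at 0.68 ± 0.09 and Rbm8a at 0.63 ± 0.08 and the decay factor Upf3b at -0.55 ± 0.17.

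SR-related proteins and SR protein kinases had 7 higher and 9 lower of 21, again beside 24.9% and 26.2% of all tested features. The largest changes there were the falls of Tra2a, an SR-like exon activator, at -1.18 ± 0.07, of Pnn at -1.07 ± 0.07 and of Arglu1 at -0.93 ± 0.09. Tra2a stood on day 7 at 73.9 CPM with PCL-O, 76 with PCL-E, 38.7 with PCL-S and 38.4 with PCL-SE. Other RNA-binding splicing regulators had 7 higher and 15 lower of 44. Celf2, a regulator of muscle and brain exons, was lower on both days, at 46.2, 42.5, 22.3 and 21.8 CPM on day 3 and 37.9, 25.7, 12.9 and 10.7 CPM on day 7, with log2 fold changes of -0.99 ± 0.15 and -1.65 ± 0.15. Rbm38 was higher on day 7 at 1.87 ± 0.26, and Khdrbs2 had 0 counts in all 4 libraries with S7 and at most 1.17 CPM elsewhere.

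**Figure D5:**
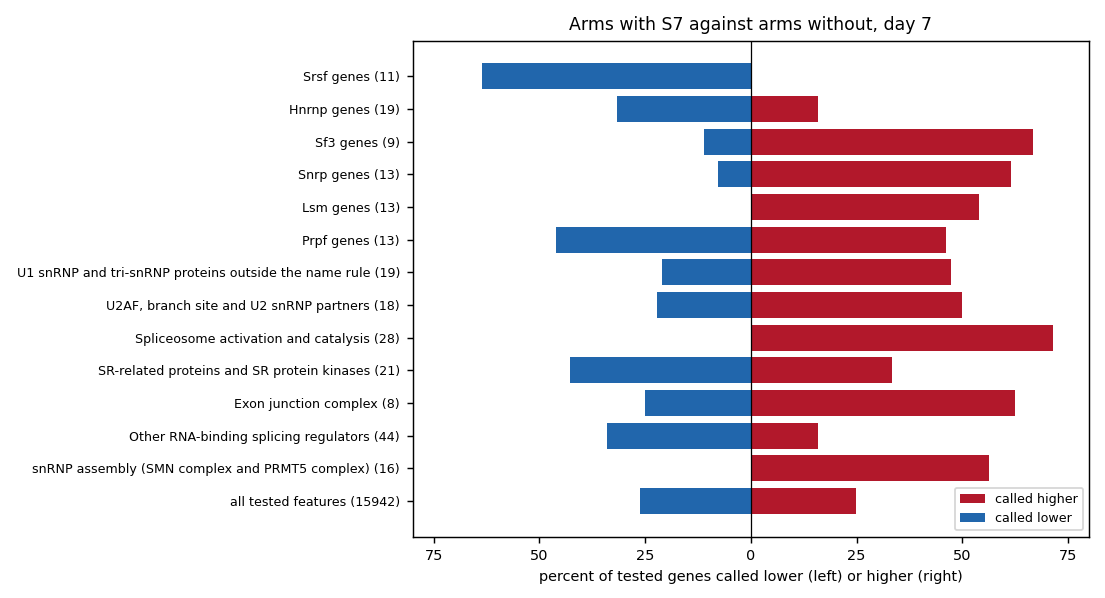
Bars give the percent of tested genes called higher (right, red) or lower (left, blue) with S7 on day 7 under TMM, for each family, for the 7 lists and for all tested features, with the number tested in brackets. All tested features reach 24.9% higher and 26.2% lower, the Srsf genes 0 and 63.6%, and the Snrp genes 61.5% and 7.69%.

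On day 3 few splicing factor genes differed with S7. Of 78 tested, 5 were higher and 2 were lower, beside 7.1% higher and 6.87% lower among all tested features. The 5 higher genes were Snrpf, Hnrnpd, Srsf4, Hnrnpa3 and Hnrnpa1. Hnrnpd, which also binds AU-rich elements of unstable mRNAs, stood on day 3 at 57.6 CPM with PCL-O, 68.1 with PCL-E, 86.9 with PCL-S and 86.3 with PCL-SE, and on day 7 at 64.7, 65.7, 68.2 and 69.3 CPM. The groups did not overlap on day 3 (0.48 ± 0.09, adjusted p = 0.0173, edgeR). Srsf4 stood at 31.2, 33.4, 42.3 and 43.9 CPM on day 3 and at 37.2, 34, 41.2 and 46.7 CPM on day 7, and its log2 fold change on day 3 was 0.43 ± 0.11 (adjusted p = 0.0429, edgeR). Hnrnpa1, the classic repressor of exon inclusion, and its relative Hnrnpa3 stood on day 3 at 226, 245, 282 and 296 CPM and at 145, 154, 189 and 196 CPM, and on day 7 at 282, 295, 289 and 318 CPM and at 182, 197, 204 and 249 CPM. Their log2 fold changes on day 3 were 0.31 ± 0.08 and 0.38 ± 0.09, with no overlap of the groups on day 3. The 2 lower genes were Snrpn and, at 0.976 and 0.382 CPM in the arms with S7 against 4.75 and 2.31 in PCL-O and PCL-E, Srsf12.

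The 5 higher calls on day 3 were sensitive to single libraries. Without PCL-O, PCL-S or PCL-SE of day 3 the higher calls numbered 0 and the lower 1, and without PCL-E of day 3 they numbered 1 and 2. Without PCL-O or PCL-E of day 7 they numbered 12 and 4, and without PCL-S or PCL-SE of day 7 they numbered 2 and 2. Proliferation markers moved with S7 on this day: 11 of 14 tested were higher and 0 lower, and their summed level was 558.9 and 630.2 CPM in PCL-O and PCL-E against 900.5 and 918.9 with S7, with none of the 14 under 1 CPM in every library. On day 7 the same sum was 675, 679, 690.4 and 657 CPM, while 2 of the 14 were higher with S7 (Pcna and Mcm2) and 5 lower (Top2a, Bub1, Mki67, Plk1 and Ccnb1). Top2a stood then at 105.8, 94.1, 49.9 and 47.3 CPM and Mcm2 at 55.9, 58.8, 93.1 and 86.1 CPM. The part of proliferation markers in the splicing factor differences of either day was not tested. Of the 154 listed genes outside the name rule, 3 were higher and 3 lower on day 3, beside 7.1% and 6.87% of all tested features.

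The S7 effect itself differed between the days. In the test of that difference, 11 of 78 splicing factor genes had a higher and 18 a lower S7 effect on day 7 than on day 3, beside 13.2% and 15.5% of all tested features. Lower effects were found for 7 Srsf, 7 Hnrnp, 3 Prpf and 1 Sf3 genes, and higher effects for 4 Sf3 genes, for 2 each of the Snrp, Lsm and Prpf genes and for 1 Hnrnp gene. The largest falls were those of Prpf39 (-1.42 ± 0.17, adjusted p = 0.00296, edgeR), Srsf1 (-1.22 ± 0.12) and Hnrnph1 (-1.17 ± 0.14). The largest rises were those of Snrpc (0.99 ± 0.16, adjusted p = 0.0068, edgeR), Lsm1 (0.93 ± 0.14) and Snrpb (0.87 ± 0.13). Sf3b5 had a negative log2 fold change with S7 on day 3 and a positive one on day 7, at 51.5, 47.8, 38.2 and 39.7 CPM on day 3 and 45.6, 56.5, 89.6 and 79.1 CPM on day 7; the difference was 0.83 ± 0.16 (adjusted p = 0.0105, edgeR). Lsm7, at 10.4, 9.6, 8.76 and 9.81 CPM on day 3 and 9.35, 11.7, 20.6 and 18.5 CPM on day 7, differed by 0.76 ± 0.20. Snrpn did not pass this test, at -0.10 ± 0.28 (adjusted p = 0.817, edgeR). With total-count scaling 22 effects were higher and 13 lower, beside 3721 and 1750 of all 15942 tested features. Higher calls numbered 3 without PCL-O of day 3, 6 without PCL-E of day 3, 4 without PCL-S or without PCL-SE of day 3, 6 without PCL-S of day 7 and 7 without PCL-SE of day 7, and lower calls numbered 11 without PCL-O of day 3.

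Time alone was tested within the arms. Without S7, 0 splicing factor genes were higher and 0 lower on day 7 than on day 3, beside 0.671% and 0.935% of all tested features; 10 of the 78 had an unadjusted p under 0.05 in edgeR, and DESeq2 called 0 higher and 1 lower. The smallest p-values were those of Snrpn, at -0.90 ± 0.19 (adjusted p = 0.085, edgeR), and Srsf11, at 0.27 ± 0.07 (adjusted p = 0.142, edgeR). Srsf11 stood at 77.5, 76.8, 86.9 and 87.8 CPM on day 3 and at 92.6, 103, 74.7 and 79.97 CPM on day 7, and PCL-O and PCL-E were higher on day 7 while PCL-S and PCL-SE were lower. Without PCL-E of day 7, 1 gene was called higher and 1 lower.

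With S7, 27 splicing factor genes were higher and 22 lower on day 7 than on day 3, beside 24.4% and 26.4% of all tested features. This comparison shares the PCL-S and PCL-SE libraries of day 7 with those above, so its values are set beside them and are no separate evidence. The largest rises were Lsm1 (1.18 ± 0.10), Snrpc (1.01 ± 0.11) and Snrpb (0.85 ± 0.09), followed by Sf3b5 (0.81 ± 0.11), Sf3b4 (0.79 ± 0.08) and Lsm10 (0.79 ± 0.16), leaving aside Srsf12, whose levels stayed under 5 CPM in these arms. Lsm10 stood at 3.22, 3.92, 3.49 and 3.73 CPM on day 3 and at 4.19, 5.05, 7.43 and 8 CPM on day 7. The largest falls were Prpf39 (-1.26 ± 0.12), Hnrnph1 (-1.20 ± 0.10) and Srsf1 (-1.09 ± 0.08), followed by Snrpn (-1.0 ± 0.21), Prpf40b (-0.97 ± 0.14) and Srsf6 (-0.95 ± 0.10). Scaling to library totals shifted the all-feature median from -0.03 to 0.28 here. It gave 39 higher and 14 lower splicing factor genes, beside 6255 and 2685 of all 15942 tested features. The Hnrnp median turned from -0.09 to 0.22 and the Prpf median from -0.25 to 0.05. Prpf8 was called lower at -0.32 ± 0.11 under TMM and higher at 0.21 after removal of the length trend (adjusted p = 0.0293, edgeR). Without PCL-S of day 3 the higher calls numbered 16, and without PCL-SE of day 3 they numbered 12.

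E7 left no called difference in splicing factor genes. The test took 1 E7 effect for both days and for arms with and without S7. An effect of E7 limited to 1 day or to arms without S7 was not tested. Over both days, with S7 and day in the fit, 0 were higher and 0 lower, beside 0.0% and 0.0% of all tested features; 1 of the 78 had an unadjusted p under 0.05, and DESeq2 called 0. The smallest p-values were those of Hnrnpll, at 0.17 ± 0.05 (adjusted p = 0.895, edgeR), and Hnrnpr, at 0.14 ± 0.06 (adjusted p = 0.895, edgeR). Hnrnpll, an hnRNP known for CD45 splicing in lymphocytes, stood at 50.2, 54.9, 53.5 and 58.5 CPM on day 3 and at 54.8, 67.5, 64.2 and 76.9 CPM on day 7, higher with E7 in each of the 4 pairs of arms. Hnrnpr stood at 73.9, 79.1, 80.5 and 85.4 CPM on day 3 and at 77.3, 90.3, 62.9 and 77.5 CPM on day 7, also higher with E7 in each pair.

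Single arms were compared within a day as ratios of 1 library to another, without a test, counting genes that reached 20 CPM in at least 1 of both libraries and differed by 1.5-fold or more. PCL-S against PCL-O had 2 of 59 splicing factor genes past that fold on day 3 (14.3% of all features so compared) and 22 of 66 on day 7 (41.6%). PCL-SE against PCL-O had 1 of 60 on day 3 (14.2%) and 16 of 64 on day 7 (39.0%). On day 7 the first pair had 13 higher and 9 lower, and the second 6 higher and 10 lower. PCL-E against PCL-O had 0 of 59 on day 3 (1.06%) and 0 of 61 on day 7 (7.35%). For PCL-SE against PCL-S the counts were 0 of 59 (0.412%, day 3) and 0 of 65 (0.86%, day 7). The extremes of the S7 pairs on day 7 were the same genes: Snrpb, with log2 ratios to PCL-O of 1.15 (PCL-S) and 1.04 (PCL-SE), and Snrpn, with ratios of -1.54 and -1.40.

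The labelled cell type was checked against marker genes. Stromal markers were detected in every library, summing to 16680 to 55690 CPM, and with S7 on day 7 there were 2 higher and 6 lower of 10. Col1a1, Col1a2 and Itgb1 were lowest, and Cd44 and Pdgfra highest, in both day 7 libraries with S7. Of 9 blood cell markers matched, 8 were under 1 CPM in every library, Ptprc among them, and of 5 endothelial markers 4 were. The exceptions were Cd14 and Tek. Cd14 stood at 5.97, 6.66, 15.6 and 17.1 CPM on day 3 and at 8.4, 9.05, 18.9 and 17.9 CPM on day 7. Tek stood at 5.42, 6.37, 12.6 and 14.1 CPM on day 3 and at 3.25, 4.31, 4.07 and 4.11 CPM on day 7. Of 8 osteoblast markers, Sp7, Bglap and Ibsp were under 1 CPM in every library. With S7 on day 7, 1 of 7 tested was higher (Spp1) and 4 were lower (Alpl, Phex, Dmp1 and Ibsp), with a median log2 fold change of -3.60. Alpl stood on day 7 at 13.2, 8.6, 0.698 and 1.33 CPM and Spp1 at 1296, 1022, 1679 and 2795 CPM. The summed adipocyte markers were 43.1 and 36.5 CPM with S7 on day 7 and 14.3 to 31.9 CPM elsewhere. Of 4 tested, Cebpa, Pparg and Fabp4 were higher and Lpl was lower with S7 on day 7, and Cebpa stood then at 3.58, 4.14, 23.9 and 22.2 CPM and Lpl at 10.4, 11.7, 3.67 and 4.69 CPM. The part of these marker levels in the splicing factor differences was not tested.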

How the data were processed

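Counts per gene and library, whole numbers in the deposited table, were made by the authors; per the file headers they are raw. No aligner or counting tool is given in the sources used here. FPKM values, normalised by the authors to gene length and library size per the file headers, served for levels between genes and for gene lengths. The submitters' processing notes name mm10, but the 26873 features comprise 22050 with rat Ensembl identifiers, 0 with mouse identifiers and 4823 unnamed, so gene names follow the table and no coordinates or sequences are given. Broken annotation lines (10) were dropped, and 60 other value columns, the authors' own comparisons among them, were not used.

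The edgeR 4.0.16 functions filterByExpr and calcNormFactors (TMM) prepared the counts in R 4.3.3. A quasi-likelihood model with terms for S7, day, E7 and S7 by day used all 8 libraries (3 residual degrees of freedom; common biological variation of 0.137 as a coefficient), with Benjamini-Hochberg adjustment over 15942 features and calls under 0.05. Printed CPM are scaled to library totals, whereas fold changes use TMM. Overlap between groups was judged on the printed CPM unless TMM is named. Errors are standard errors of the log2 fold change, taken as its absolute value divided by the square root of edgeR's quasi-likelihood F statistic. Pair ratios used TMM-normalised CPM with 2 added. The code was tested on simulated data. Alternatives were DESeq2 1.42.0, its size factors in edgeR, total-count scaling, no filter, removal of a lowess trend over length (span 0.3), other terms, leaving out each library and, chosen after seeing the data, copies summed into members. For pairs, 0.5 CPM added, a minimum of 5 CPM and total-count CPM were tried. Tables and figures used Python 3.11.15, pandas 2.3.3, numpy 2.4.6 and matplotlib 3.10.9.

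The genes and lists were chosen with earlier results of these data known. Any gene of the name rule could be named; all 8 values are given for the most abundant gene of each family and, per comparison, for the 6 called genes with the largest rise and the 6 with the largest fall that had at least 5 CPM in the higher group and no overlap, or the 2 smallest p-values where none was called. The result of 1 gene of the name rule is not reported here; it is counted in totals and has no row in the heat map. From each list up to 3 called genes with the largest change are named, apart from those described for other comparisons.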

Additional observations from a re-analysis of the deposited data

Results flagged for a closer look

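The S7 effect on 29 splicing factor genes differed between day 7 and day 3 by the interaction test in edgeR's quasi-likelihood fit (adjusted p under 0.05 over all tested features, 2 libraries per side and day). Of the 78 tested, 11 had a higher and 18 a lower effect on day 7, beside 13.2% and 15.5% of all tested features. Values are the log2 fold change with S7 on day 7 minus that on day 3.

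The S7 effect was lower on day 7 for the SR protein genes Srsf1 (-1.22), Srsf6 (-1.06), Srsf10 (-0.90), Srsf2 (-0.84), Srsf11 (-0.76), Srsf5 (-0.69) and Srsf7 (-0.62), and for the hnRNP genes Hnrnph1 (-1.17), Hnrnpa2b1 (-0.85), Hnrnph3 (-0.75), Hnrnpdl (-0.73), Hnrnpd (-0.63), Hnrnpr (-0.62) and Hnrnpa1 (-0.46). It was also lower for Prpf39 (-1.42), Prpf40b (-0.89) and Prpf4b (-0.64) among the Prpf genes and for Sf3b1 (-0.58), the large SF3B scaffold. It was higher on day 7 for Snrpc (0.99), Lsm1 (0.93), Snrpb (0.87) and Lsm7 (0.76) among the Sm and Sm-like families. The Sf3 genes with a higher effect were Sf3b5 (0.83), Sf3b4 (0.66), Sf3a2 (0.63) and Sf3a1 (0.38), and the Prpf and Hnrnp genes were Hnrnpc (0.65), Prpf3 (0.41) and Prpf19 (0.40). Hnrnpc is uncertain, since a feature with its second symbol holds 129% of its counts; with that feature summed in, its value was 0.31 and the call was lost (adjusted p = 0.127, edgeR).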

How the results depend on the processing

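No paired analysis was possible because each arm and day has 1 library and the labels give no shared replicate numbers. Calls of splicing factor genes moved by more than 1.5 times as follows. For S7 on day 3, the 5 higher calls became 3 under total-count scaling and 1 with E7 by day added, and ranged from 0 to 12 when 1 library was left out. The 2 lower calls became 4 after removal of the length trend and ranged from 1 to 4 without 1 library. For S7 on day 7, the 30 higher calls ranged from 12 to 28 without 1 library. For the change of the S7 effect, the 11 higher calls became 22 under total-count scaling and ranged from 3 to 15 without 1 library, and the 18 lower calls ranged from 11 to 24. For day 7 against day 3 without S7, where the main analysis called 0, DESeq2 called 1 lower, and 0 to 1 were called higher and 0 to 1 lower without 1 library. For day 7 against day 3 with S7, the 22 lower calls became 14 under total-count scaling and the 27 higher calls ranged from 12 to 29 without 1 library. In the single arm pairs, PCL-S against PCL-O on day 3 went from 2 genes past the fold to 1 with total-count CPM, PCL-SE against PCL-O on day 3 from 1 to 2 and PCL-SE against PCL-S on day 7 from 0 to 1 with a minimum of 5 CPM. Total-count scaling also moved the median fold change of the genes for S7 on day 7 from 0.09 to 0.31. Among all tested features it moved higher calls from 1132 to 1023 for S7 on day 3. For the change of the S7 effect it moved them from 2105 to 3721. Their lower calls went from 4201 to 2685 for day 7 against day 3 with S7. Removal of the length trend moved their lower calls from 1095 to 1312 for S7 on day 3. Of the values under these alternatives of single genes that were called, most abundant or smallest in p, 2346 kept their side of the threshold, 340 were no longer called, 14 became called and 4 reversed. After removal of the length trend, Prpf8 went from -0.22 to a called 0.23 for S7 on day 7 and from a called -0.32 to a called 0.21 for day 7 against day 3 with S7. Under total-count scaling, Hnrnpa1 went from -0.24 to 0.07 and Hnrnpu from -0.26 to 0.04 in the latter comparison, neither then called. Leaving out a library leaves a group with 1 library, whose spread is then assumed to be that of the others, and fewer residual degrees of freedom. Keeping the identifier with most counts made no difference, since no name repeats. E7 called 0 genes under all the alternatives, additive arm and day terms among them. The causes of the other moves were not tested.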
